A study of Homo sapiens with 12 samples.

Results

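The SMC1 peaks of ΔWAPL/ΔSCC4 cells were compared with those of wild-type cells, to describe where cohesin sites differed when both its loading factor SCC4 and its release factor WAPL were deleted. The members were all peaks of both lists, 18542 in wild-type and 26558 in ΔWAPL/ΔSCC4 cells, together 45100 of the 267921 peaks of the 12 lists of the series. The deposited SMC1 lists differ in peak number from the counts the study reports. The ΔWAPL list holds fewer peaks than reported and the ΔSCC4 list more, and the excess of ΔWAPL/ΔSCC4 over wild-type cells is smaller than reported. Why they differ is not known, so that all numbers, ratios and orders of genotypes hold for the deposited lists alone. A peak was called shared when its interval overlapped a peak of the other list by at least 1 bp, and it is otherwise called wild-type-only or ΔWAPL/ΔSCC4-only. The position of a peak was its summit, the base of highest read pileup.

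All cells were HAP1 (Hap1), an established near-haploid human line derived from a chronic myeloid leukaemia, whose parental cells carry mutant p53. Wild-type cells (WT) carried no deletion. ΔWAPL was a clone (WaplKO_3.3) in which CRISPR was used to insert a blasticidin resistance cassette into WAPL. ΔSCC4 (SCC4KO) carried a puromycin cassette in SCC4, the gene listed as MAU2. ΔWAPL/ΔSCC4 (WaplKO_3.3/SCC4KO, titled DKO_3.3) was made from the ΔWAPL cells by deletion of SCC4, so that it shares the history of that clone. The ΔWAPL and ΔSCC4 lines were clones, the wild-type cells are not described as one, and each genotype had 1 library per antibody (SMC1, CTCF and non-specific IgG). No test between genotypes was therefore possible, intervals cover counting error only, and differences between cell lines, cultures and precipitations cannot be told apart from those between genotypes.

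Cohesin is a ring-shaped complex that holds sister chromatids together and forms chromatin loops, and SMC1 is a subunit of its core. The SCC2/SCC4 complex promotes the loading of cohesin onto DNA, and WAPL releases it. CTCF is a zinc-finger protein that binds a long, asymmetric motif and is the main protein at which cohesin is found to be positioned in mammalian chromosomes, and cohesin is also found at active transcription start sites.

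Peaks of high −log10 q in each class show the kinds of sequence the comparison turned on. They are given 5′ to 3′ as read from the GRCh37 genome, the build named hg19 in the labels, with the best match to the CTCF motif in capitals. The stretch around the motif is shown, or that around the summit where there was no match. The motif was learned from wild-type CTCF peaks of these files, and its consensus was TGGCCACCAGGGGGCGCCG, 19 bp long.

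The strongest shared peak on the chromosomes considered lay at the start of FSIP2, which encodes a protein of the sperm fibrous sheath (peak chr2:186603476-186604092, minus strand of chr2:186603713-186603793 shown), and the next at the start of LINGO1, which encodes a neuronal membrane protein (peak chr15:77925728-77926261, plus strand of chr15:77925974-77926054). Their sequences are shown as examples of sites that all genotypes held.
FSIP2: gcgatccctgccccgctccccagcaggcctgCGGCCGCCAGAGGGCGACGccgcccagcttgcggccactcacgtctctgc
LINGO1: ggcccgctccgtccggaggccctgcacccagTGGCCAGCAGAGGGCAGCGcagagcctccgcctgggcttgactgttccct
SMC1 fold enrichment, the ratio of pileup to local background, at FSIP2 was 18.9 in the double deletion and 19.1 in wild-type cells, with 17.6 in ΔWAPL and 16.5 in ΔSCC4 cells. At LINGO1 it was 15.2, 11.6, 16.8 and 10.99 in the same order. FSIP2 thus had like values in all lines, whereas the lines without WAPL had the higher values at LINGO1.

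The strongest ΔWAPL/ΔSCC4-only peaks at a CTCF peak were an intergenic site 50700 bp from the nearest protein-coding start, that of TXNL1 (peak chr18:54230770-54231262, minus strand of chr18:54231015-54231095), and a site in KRT12, a keratin gene of the cornea (peak chr17:39019184-39019631, plus strand of chr17:39019357-39019437). They are shown because the wild-type list had a CTCF peak and no SMC1 peak at either.
Intergenic, chromosome 18: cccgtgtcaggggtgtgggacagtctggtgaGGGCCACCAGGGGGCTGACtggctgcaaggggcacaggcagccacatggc
KRT12: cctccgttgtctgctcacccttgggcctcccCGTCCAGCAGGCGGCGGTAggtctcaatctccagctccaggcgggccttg
At the chromosome 18 site, SMC1 fold enrichment was 12.98 in ΔWAPL/ΔSCC4, 10.3 in ΔWAPL and 5.94 in ΔSCC4 cells, with 60 reads over a background of 3.70 at the ΔWAPL/ΔSCC4 summit. CTCF fold enrichment there was 10.1 in wild-type and 18.5 in ΔWAPL/ΔSCC4 cells. At KRT12, SMC1 peaks were called in ΔWAPL/ΔSCC4 (11.99) and ΔWAPL cells (16.3), and the CTCF value was 7.74 in wild-type cells, against 17.6 for ΔWAPL and 17.8 for the double deletion. At both sites, then, the CTCF value in ΔWAPL/ΔSCC4 cells was above that in wild-type cells. These sites were picked by their SMC1 −log10 q, and CTCF rises of this size were not typical. CTCF peaks with SMC1 in ΔWAPL/ΔSCC4 but not wild-type cells had like median CTCF fold enrichments in both CTCF lists. The median was 12.12 in the wild-type list (8002 peaks) and 12.02 in the ΔWAPL/ΔSCC4 list (8595 peaks). The medians of the whole CTCF lists were 12.17 and 10.96.

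Peaks without CTCF are shown for contrast, one at a start site and one elsewhere, each second by −log10 q in its class. At the start of ADAT2, which encodes a subunit of a tRNA adenosine deaminase (peak chr6:143771712-143772024, plus strand of chr6:143771833-143771882, without the untranslated region), SMC1 was called in ΔWAPL/ΔSCC4 (8.55) and ΔWAPL cells (11.2). At an intergenic site 32200 bp from the start of HPCAL1, a neuronal calcium sensor gene (peak chr2:10410656-10410999, plus strand of chr2:10410792-10410872), it was called in the same lines, at 7.81 and 7.12.
ADAT2: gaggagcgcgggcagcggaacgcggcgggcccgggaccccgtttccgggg
Intergenic, chromosome 2: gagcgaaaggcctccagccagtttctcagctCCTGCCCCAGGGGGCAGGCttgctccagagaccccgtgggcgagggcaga
The ADAT2 window held no match to the motif. The chromosome 2 window held one, although no CTCF list had a peak there. The peaks first by −log10 q in these classes, of 1056 and 272 peaks, lay at FKBP1C (10.2) and at an exonic position where the genes SMC4 and TRIM59 overlap (10.2), with 25 and 34 reads at the summit, and in both cases the ΔWAPL/ΔSCC4 SMC1 list alone of the SMC1 lists held a peak. FKBP1C is an intronless copy of FKBP1A, so that reads of one copy can be placed at the other, and the wild-type CTCF list held a peak there (5.09).

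Among wild-type-only peaks, the strongest at CTCF was intergenic, 225315 bp from the start of ANKRD30A (peak chr10:37189029-37189392, plus strand of chr10:37189136-37189216).
Intergenic, chromosome 10: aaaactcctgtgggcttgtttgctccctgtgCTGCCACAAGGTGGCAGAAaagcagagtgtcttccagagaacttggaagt
At the chromosome 10 site, SMC1 fold enrichment was 12.01 in wild-type cells, while ΔSCC4 cells were at 10.99 and ΔWAPL cells at 6.73, and CTCF fold enrichment was 17.6 in wild-type and 6.31 in ΔWAPL/ΔSCC4 cells. At MXI1, which encodes an antagonist of MYC, the second wild-type-only peak at CTCF had an SMC1 fold enrichment of 8.73 in wild-type cells, while ΔSCC4 cells were at 4.25 and ΔWAPL cells at 9.69. The CTCF fold enrichments at MXI1 were 15.9 in wild-type and 16.3 in ΔWAPL/ΔSCC4 cells, so that here SMC1 was called in only one of the compared lines while CTCF differed little. One of the strongest wild-type-only peaks without CTCF lay at SNORD3B-2, one of several near-identical snoRNA genes, and rested on 20 reads.

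The number of SMC1 peaks was 1.43-fold that of wild-type cells (95% interval 1.41 to 1.46), although the ΔWAPL/ΔSCC4 library was the shallower, at 6.79 against 8.13 reads per kb. Its intervals were also longer, with a median of 371 bp against 290 bp, and covered 10187.6 kb against 5587 kb. The length of the fragments that the peak caller assumed was 227 bp in ΔWAPL/ΔSCC4 and 194 bp in wild-type cells, and its part in the widths was not tested. With the pileups scaled to the shallower depth, and peaks kept where the recomputed −log10 p was 8 or more, the ratio of peak numbers was 1.69, although peaks were not called again and fragment lengths were not matched. Merging both lists gave 28448 regions, of which 16581 had a peak in both genotypes, 1898 had one only in wild-type cells and 9969 only in the double deletion. Peaks of either SMC1 list rarely overlapped an IgG peak of any genotype, with 2.1% in wild-type and 1.26% in ΔWAPL/ΔSCC4 cells, and with 3.48% of wild-type-only and 0.211% of ΔWAPL/ΔSCC4-only peaks.

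The excess was spread almost evenly over gene parts. A summit within 1 kb of any transcript start was counted as a start site, and the others as exon, intron or intergenic. Start sites held 24.7% of wild-type (24.1 to 25.4) and 24.7% of ΔWAPL/ΔSCC4 peaks (24.1 to 25.2), against 7.52% of the genome's bases. Exons held 5.05% and 4.74%, introns 38.1% and 38.5%, and intergenic sequence 32.1% and 32.1%. The ratio of peak numbers was accordingly 1.43 at start sites, 1.35 in exons, 1.45 in introns and 1.43 in intergenic sequence, with overlapping intervals. The start-site share of ΔSCC4 cells was 24.4%, and that of ΔWAPL cells, 34.3%, lay above those of the other genotypes. By the distance to the nearest start, the ratio was lowest for peaks at 1 to 10 kb, 1.36 (1.32 to 1.4), and highest for those more than 100 kb away, 1.70 (1.51 to 1.93).

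Beneath the equal shares, peaks with and without CTCF differed. At start sites with a CTCF peak of the same genotype, SMC1 peaks numbered 3876 in wild-type and 5156 in ΔWAPL/ΔSCC4 cells, a ratio of 1.33 (1.28 to 1.39). At start sites without one, they numbered 712 and 1393, a ratio of 1.956 (1.79 to 2.14). Intergenic peaks without CTCF numbered 169 and 159, a ratio of 0.941 (0.758 to 1.17), which cannot be told from 1. Intronic peaks without CTCF numbered 125 and 163, a ratio of 1.304 (1.03 to 1.65). Start sites made up 69.9% of wild-type (67.0 to 72.6) and 80.3% of ΔWAPL/ΔSCC4 peaks without CTCF (78.4 to 82.1). These were weak peaks: among the 18542 strongest ΔWAPL/ΔSCC4 peaks, as many as the wild-type list holds, only 202 were start sites without CTCF.

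Of the wild-type peaks, 89.8% had a counterpart in ΔWAPL/ΔSCC4 cells (89.3 to 90.2). By gene part the share was 84.5% at start sites, 91.5% in exons, 90.6% in introns and 92.6% in intergenic sequence. For peaks at CTCF it ran only from 91.5% at start sites (90.6 to 92.4) to 94.6% in intergenic sequence (94.0 to 95.1). In ΔSCC4 cells the same CTCF-bound start sites and intergenic sites were overlapped in 63.2% and 66.4% of cases, and in ΔWAPL cells in 97.2% and 95.4%. The ΔWAPL/ΔSCC4 values thus lay close to the ΔWAPL values in intergenic sequence, and further below them at start sites.

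Wild-type peaks without CTCF were found again much less often. Their share with a counterpart was 38.9% in ΔWAPL/ΔSCC4, 21.1% in ΔSCC4 and 64.8% in ΔWAPL cells. At start sites without CTCF, 328 of 712 had one in ΔWAPL/ΔSCC4 cells (46.1%, 42.4 to 49.7), 22.1% in ΔSCC4 (19.2 to 25.2) and 78.7% in ΔWAPL cells (75.5 to 81.5). In intergenic sequence without CTCF, the ΔWAPL/ΔSCC4 share was 23.1% (17.4 to 29.98) and the ΔSCC4 share 25.4% (19.5 to 32.5), with overlapping intervals. Conversely, just 283 of the 1393 ΔWAPL/ΔSCC4 peaks at start sites without CTCF were in the wild-type list (20.3%, 18.3 to 22.5), and 76.4% were in the ΔWAPL list (74.1 to 78.5). Number and identity therefore differed for this class, which was the larger in ΔWAPL/ΔSCC4 cells although 384 of its 712 wild-type members had no counterpart there.

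**Figure D1:**
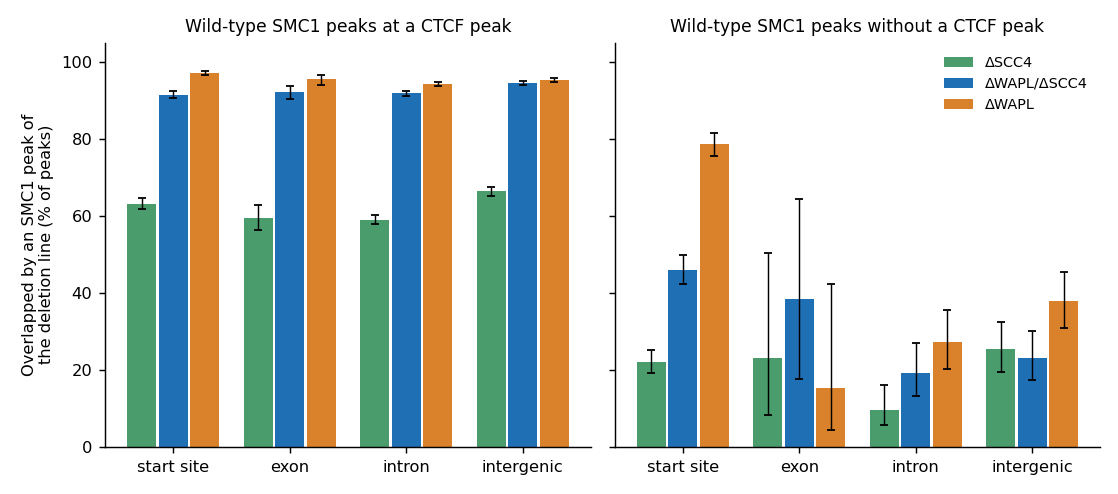
Share of wild-type SMC1 peaks overlapped by an SMC1 peak of ΔSCC4, ΔWAPL/ΔSCC4 and ΔWAPL cells, by gene part, for peaks at a CTCF peak (left) and without one (right). Bars give the percent of peaks and error bars the 95% Wilson interval, which covers counting error only; at CTCF the ΔWAPL/ΔSCC4 bars run from 91.5% to 94.6%, and without CTCF the start-site bar stands at 46.1%.

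Shared peaks were the strong ones in both lists. When wild-type peaks were split into 5 groups by −log10 q, 70.7% of the weakest and 99.8% of the strongest had a counterpart in ΔWAPL/ΔSCC4 cells. For ΔWAPL/ΔSCC4 peaks found in wild-type cells the share ran from 25.0% to 97.1%. Of the 3709 strongest wild-type peaks, 8 had no counterpart. Shared peaks overlapped by a median of 284 bp and their summits lay a median of 32 bp apart. Few unshared peaks were near misses, since 39 of 1898 wild-type-only and 54 of 9969 ΔWAPL/ΔSCC4-only summits had a summit of the other list within 500 bp.

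At most shared peaks the depth-scaled SMC1 pileup was higher in ΔWAPL/ΔSCC4 cells. Whole-number summit pileups were recovered from the lists and divided by the genome-wide average of each library. The median of this scaled pileup was 13.3 in wild-type and 16.9 in ΔWAPL/ΔSCC4 cells, with a median ratio of 1.28 over 16621 pairs (middle 50% of pairs 1.02 to 1.57), and 77.8% of pairs were higher in ΔWAPL/ΔSCC4 cells. The ratio was at least 2 at 1222 pairs, a background share of 7.35% of all pairs tested, and at most 0.5 at 45, a share of 0.271%. The fold enrichment, which is measured against the local background, differed less, with a median ratio of 1.10. Each pair rests on peaks that passed the threshold in both lists.

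The ratio of signals differed between kinds of site. Its median was 1.31 in intergenic sequence (1.304 to 1.33), 1.26 in introns and at start sites, and 1.22 in exons (1.18 to 1.26). It was 1.28 at peaks with CTCF and 1.08 at the 396 peaks without it (1.02 to 1.11). The 328 shared start sites without CTCF had a median ratio of 1.10 (1.06 to 1.14). Over 5 groups of increasing CTCF fold enrichment in wild-type cells the median ratio stayed between 1.26 and 1.301, so it did not follow CTCF strength. By the wild-type SMC1 strength it was 1.49 in the weakest and 1.13 in the strongest group, a split that uses a value of the ratio itself.

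Most ΔWAPL/ΔSCC4-only peaks lay where CTCF was already found in wild-type cells. Of the 9969, 8569 overlapped a ΔWAPL/ΔSCC4 CTCF peak (86.0%, 85.3 to 86.6), and 7891 of these, 92.1%, also overlapped a wild-type CTCF peak. The 86.0% was below the 98.0% of shared ΔWAPL/ΔSCC4 peaks and the 93.5% of the whole ΔWAPL/ΔSCC4 list. On even-numbered chromosomes, which were not used to learn the motif, 70.0% of ΔWAPL/ΔSCC4-only summits held a motif match within 100 bp (68.7 to 71.3), against 86.6% of shared and 56.9% of wild-type-only summits and 5% of windows 1 kb downstream of wild-type summits. Of the ΔWAPL/ΔSCC4-only peaks, 72.0% overlapped a ΔWAPL SMC1 peak and 11.6% a ΔSCC4 one. Those at start sites without CTCF numbered 1110 and had matches in 27.7% (24.0 to 31.6), with a median GC content of 72.6% and 23 CpG dinucleotides in the window reaching 100 bp to each side of the summit. Windows 1 kb downstream of wild-type summits had a median GC content of 45.3%. No background of like GC content was computed, so the 27.7% does not show enrichment of the motif.

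Most wild-type-only peaks lay at CTCF, but a smaller share than of shared wild-type peaks (97.6%) or of the whole wild-type list (94.5%). Of the 1898, 1275 overlapped a wild-type CTCF peak (67.2%), and 1232 of these (96.6%, 95.5 to 97.5) overlapped a CTCF peak of ΔWAPL/ΔSCC4 cells too. CTCF was thus still called at nearly all of the CTCF sites whose SMC1 peak had no counterpart. A start site was the position of 712 wild-type-only peaks (37.5%, 35.4 to 39.7), a larger share than among shared (23.3%) or ΔWAPL/ΔSCC4-only peaks (27.01%, 26.1 to 27.9). In ΔWAPL cells, 65.6% of the wild-type-only peaks had a counterpart.

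CTCF strength ordered the sites at which SMC1 was present. The 43050 wild-type CTCF peaks were split into 10 equal groups by fold enrichment. In the weakest group, 5.25% overlapped an SMC1 peak in wild-type (4.62 to 5.96), 12.6% in ΔWAPL/ΔSCC4 (11.7 to 13.6), 20.95% in ΔWAPL and 3.86% in ΔSCC4 cells. In the group next below the median the shares were 29.5%, 53.4%, 60.4% and 15.8%, and in the strongest group 87.8%, 94.2%, 96.8% and 73.3%. The ΔWAPL/ΔSCC4 share lay between those of wild-type and ΔWAPL cells in each of the 10 groups. Of CTCF peaks without SMC1 in wild-type cells, 9.49% of the weakest group and 69.1% of the strongest (65.0 to 72.9) had SMC1 in ΔWAPL/ΔSCC4 cells. In the wild-type CTCF list, the median CTCF fold enrichment was 17.9 at peaks with SMC1 in both genotypes, 12.1 where the double deletion alone had SMC1, 13.3 where wild-type cells alone had it and 7.23 where neither did.

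**Figure D2:**
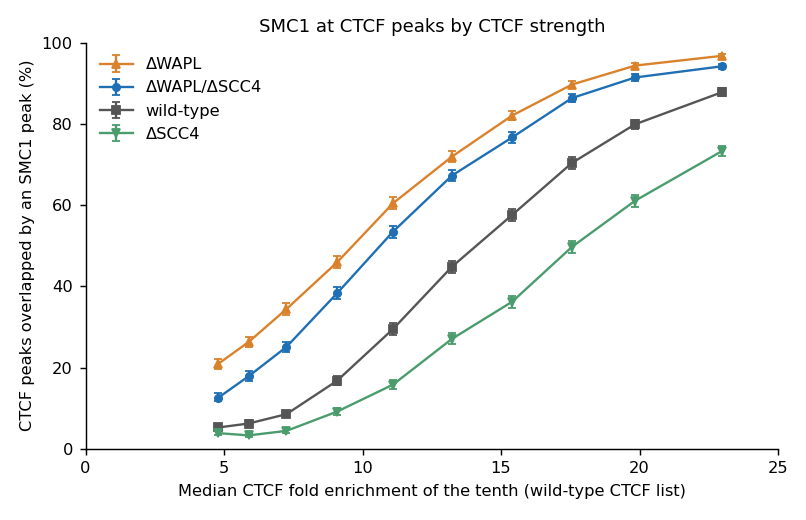
Percent of wild-type CTCF peaks overlapped by an SMC1 peak in each genotype, against the median CTCF fold enrichment of 10 equal groups of CTCF peaks. Points carry 95% Wilson intervals for counting error; the ΔWAPL/ΔSCC4 line runs from 12.6% to 94.2%, between the wild-type line (5.25% to 87.8%) and the ΔWAPL line (20.95% to 96.8%).

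SMC1 summits were closer together in ΔWAPL/ΔSCC4 than in wild-type cells. On chromosomes 1 to 22 and X, the median distance between neighbouring summits was 78.0 kb in wild-type (76.1 to 80.0) and 57.4 kb in ΔWAPL/ΔSCC4 cells (56.0 to 58.5), a ratio of 0.736 (0.7004 to 0.769). It was 37.5 kb in ΔWAPL and 120 kb in ΔSCC4 cells, so that the double deletion lay between wild-type and ΔWAPL cells. Distances over 500 kb numbered 1123 and 720, and the share of distances within 10 kb was 10.9% in wild-type and 14.4% in ΔWAPL/ΔSCC4 cells. Runs of at least 3 summits, each within 10 kb of the next, held 3.98% of the sites in wild-type and 6.10% in ΔWAPL/ΔSCC4 cells.

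The shorter distances went with the larger number of peaks. Among the 18542 strongest ΔWAPL/ΔSCC4 peaks, the median distance was 84.2 kb (82.1 to 86.2), 1.08-fold that of wild-type cells (1.03 to 1.13). The mean distances, 158.9 and 159.3 kb, follow from the equal numbers. At equal numbers the median was thus not shorter than in wild-type cells. Only the ΔWAPL/ΔSCC4 list lost its weak peaks, so that the longer median does not show wider spacing in these cells.

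**Figure D3:**
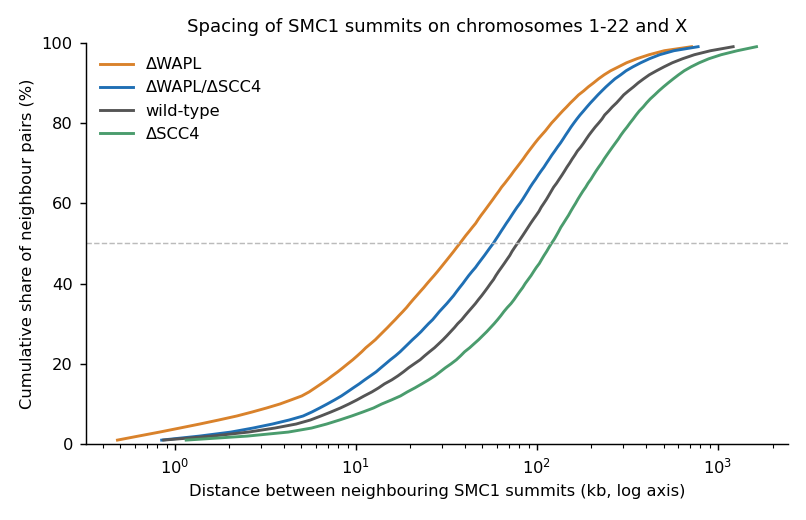
Cumulative percent of neighbouring SMC1 summit pairs against their distance in kb (log axis), for 4 genotypes on chromosomes 1 to 22 and X. The dashed line marks 50%, where the ΔWAPL/ΔSCC4 line (57.4 kb) lies between ΔWAPL (37.5 kb) and wild-type (78.0 kb) and ΔSCC4 lies furthest right (120 kb).

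New sites appeared in wild-type gaps of all lengths. Of the 18448 distances between neighbouring wild-type summits, 33.5% held at least 1 ΔWAPL/ΔSCC4-only summit (32.8 to 34.2). The share was 1.75% for gaps up to 5 kb, 27.6% for gaps of 50 to 100 kb and 85.8% for gaps over 1 Mb (81.4 to 89.3), and 1 gap held 13 such summits. Per length, long gaps held fewer. The density was 7.45 new summits per Mb in gaps up to 5 kb, 5.43 in gaps of 10 to 20 kb, 5.63 in gaps of 20 to 50 kb, 4.59 in gaps of 50 to 100 kb and 1.61 in gaps over 1 Mb. The first of these rests on 17 summits. Gap lengths run from summit to summit, up to 21465 kb, and include unsequenced bases, where no peak can be called. The density of the longest gaps is lowered by this to an extent that was not measured. The ΔWAPL/ΔSCC4-only summits lay a median of 41.9 kb from the nearest wild-type summit (40.4 to 43.7), with 32.8 kb at start sites and 48.6 kb in intergenic sequence. Of these summits, 9.23% lay within 5 kb of a wild-type summit and 27.5% more than 100 kb away.

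**Figure D4:**
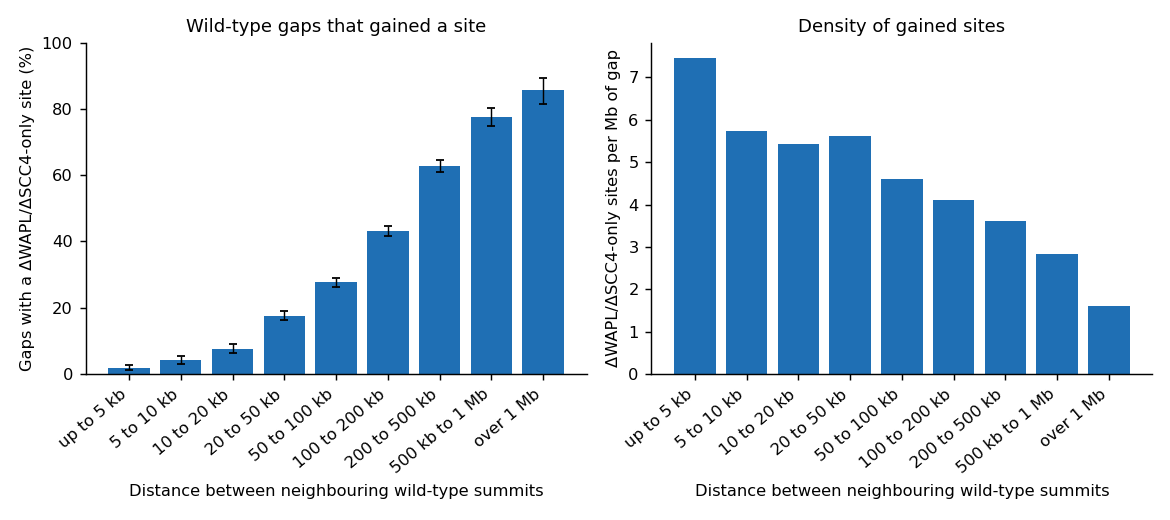
Left, percent of distances between neighbouring wild-type SMC1 summits that held a ΔWAPL/ΔSCC4-only summit, by the length of the distance, with 95% Wilson intervals for counting error. Right, the number of such summits per Mb of gap in the same classes, with unsequenced bases counted in the gap length. The percent rises from 1.75% to 85.8% while the density falls from 7.45 to 1.61 per Mb.

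Tandem pairs, which join both same-strand arrangements, were the largest class of neighbouring CTCF motifs in both genotypes. With strands drawn at random, 50.0% of pairs would be tandem, and neither list exceeded that. The order of the classes thus shows no preference for tandem pairs. Among neighbouring pairs on even-numbered chromosomes with a motif match at both summits, 26.6% were convergent in wild-type (25.5 to 27.7) and 25.4% in ΔWAPL/ΔSCC4 cells (24.4 to 26.3). Divergent pairs made up 27.5% (26.4 to 28.6) and 25.8% (24.8 to 26.7). Tandem pairs made up 46.0% (44.7 to 47.2) and 48.9% (47.8 to 50.0), and these intervals did not overlap. Convergent pairs were the most distant in both lists, with medians of 115 kb in wild-type and 89.8 kb in ΔWAPL/ΔSCC4 cells, against 67.6 and 43.95 kb for divergent and 75.6 and 52.8 kb for tandem pairs. Pairs with at least 1 new site were tandem in 50.1% (48.6 to 51.6) and pairs of shared sites in 47.3% (45.7 to 49.0), with overlapping intervals. These pairs are neighbours along the chromosome and were not observed as loops.

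The ratio of SMC1 peak numbers was higher in gene-poor sequence, where peaks were sparse in both genotypes. All 23 chromosomes tested had more peaks in ΔWAPL/ΔSCC4 than in wild-type cells, with ratios from 1.10 on chromosome 19 to 1.86 on chromosome 13, and the interval of chromosome 19 included 1. Across the 23 chromosomes the ratio was lower where there were more protein-coding genes per Mb (Spearman's rho −0.904, Pearson's r −0.828), as a description of chromosomes that share both libraries. In windows of 1 Mb without a protein-coding gene start, peaks numbered 743 in wild-type and 1327 in ΔWAPL/ΔSCC4 cells, a ratio of 1.79 (1.63 to 1.95). The ratio was 1.6 (1.55 to 1.65) with 1 to 5 gene starts, 1.41 (1.37 to 1.45) with 6 to 15, and 1.19 (1.15 to 1.24) with 16 or more. Peaks per window, in the same order of windows, were 1.37, 4.59, 8.39 and 13.4 in wild-type cells. In ΔWAPL/ΔSCC4 cells they were 2.44, 7.35, 11.8 and 15.9. In number per window, the excess was thus smallest where there was no gene start.

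The same order of ratios was found among peaks at CTCF alone, from 1.83 (1.67 to 2.01) in windows without a gene start to 1.18 (1.13 to 1.23) in those with 16 or more. Start-site peaks ran from 1.85 (1.36 to 2.53) to 1.24 (1.16 to 1.32). Peaks without CTCF had no such order, with 1.09, 1.73, 1.94 and 1.47 from the poorest to the richest windows. With equal numbers of peaks the ratio was 1.19 in windows without a gene start and 0.848 in those with 16 or more, so that the gene-poor ratio stayed the higher. That cut makes both totals equal and removes weak peaks of the ΔWAPL/ΔSCC4 list alone. A ratio under 1 in some windows follows from the cut and does not show a loss of peaks there. The share of wild-type peaks at CTCF with a counterpart was 92.4%, 94.3%, 93.5% and 89.5% from the poorest to the richest windows. Median GC content 1 kb from the wild-type summits went with gene number, from 37.8% in the poorest to 51.2% in the richest windows, and its part in the order was not tested.

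**Figure D5:**
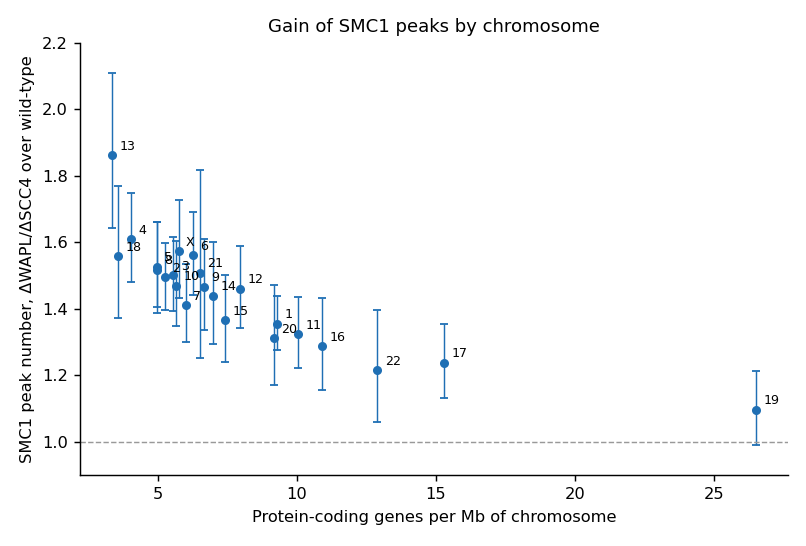
Ratio of SMC1 peak numbers, ΔWAPL/ΔSCC4 over wild-type, against protein-coding genes per Mb for chromosomes 1 to 22 and X. Points are chromosomes, error bars the 95% interval of the ratio for counting error and the dashed line a ratio of 1; the ratio runs from 1.86 on chromosome 13 to 1.10 on chromosome 19.

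Genes were then compared by the number of SMC1 summits in the gene body and 2 kb upstream. Of 20090 protein-coding genes, 4228 had more summits in ΔWAPL/ΔSCC4 cells, a background share of 21.0%, and 1004 had fewer, a share of 5.00%. Of these genes, 6786 had a site in both genotypes, 2174 had one only in the double deletion, 618 only in wild-type cells and 10512 in neither. Differences were mostly of 1 summit, at 3268 of the higher and 942 of the lower genes. Gene length moved with the outcome, as 6.46% of genes up to 10 kb and 76.5% of genes over 500 kb had more summits. The density of summits, which is measured per Mb of gene, was 24.0 in wild-type and 29.98 in ΔWAPL/ΔSCC4 cells for genes up to 10 kb, a ratio of 1.25, and 3.75 and 6.17 for genes over 500 kb, a ratio of 1.64.

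The largest differences were in genes of over 1 Mb. PDE4D, which encodes a cyclic AMP phosphodiesterase, had 2 summits in wild-type and 14 in ΔWAPL/ΔSCC4 cells, with 9 in ΔWAPL and 4 in ΔSCC4 cells, at 21 CTCF peaks in wild-type and 23 in ΔWAPL/ΔSCC4 cells. PTPRD, a receptor tyrosine phosphatase gene, had 6, 17, 17 and 6 in the same order of genotypes. DLG2, which encodes a postsynaptic scaffold protein, had 10, 19, 22 and 4. These genes were named for the largest rises in ΔWAPL/ΔSCC4 cells, so that their higher counts there follow from the choice, which also favours low wild-type counts. ΔWAPL cells too had more summits than wild-type cells in each of them, and in PDE4D the double deletion had more than ΔWAPL cells.

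The presynaptic adhesion gene NRXN3 had 3 summits in wild-type and 12 in ΔWAPL/ΔSCC4 cells, with 13 in ΔWAPL and 3 in ΔSCC4 cells. The axon guidance receptor genes ROBO2 and ROBO1 had 3 and 5 summits in wild-type and 11 and 12 in ΔWAPL/ΔSCC4 cells. LRP1B, a lipoprotein receptor family gene, had 2 and 9. The X-linked gene listed as ENSG00000250349 had 9 and 18. Of these 5 genes, ROBO2 and ROBO1 had more summits in ΔSCC4 cells (8 and 6) than in wild-type cells, and the other 3 did not.

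Some genes had 0 summits in the wild-type list and at least 5 in the ΔWAPL/ΔSCC4 list, and 4 of them are described. PHACTR1, a regulator of actin and protein phosphatase, had 6 in ΔWAPL/ΔSCC4, 6 in ΔWAPL and 0 in ΔSCC4 cells, and 7 wild-type CTCF peaks. SCAPER, NKAIN3 and INPP4B, an inositol phosphatase gene, had 5 each in ΔWAPL/ΔSCC4 cells. ΔSCC4 cells had 2 summits in SCAPER and INPP4B and 1 in NKAIN3. These 4 genes thus held CTCF peaks in wild-type cells, between 5 and 7, without an SMC1 summit.

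Genes with fewer summits differed by little. ZBTB20, a zinc-finger repressor gene, had 11 summits in wild-type and 8 in ΔWAPL/ΔSCC4 cells, and GALNT2, which encodes an enzyme of O-linked glycosylation, had 4 and 1. Both had as many in ΔWAPL as in wild-type cells (11 and 4), and 4 and 0 in ΔSCC4 cells. STEAP1B went from 8 to 6, MARK4, a microtubule-associated kinase gene, from 6 to 4, and the gene listed as ENSG00000288520 from 6 to 4. No gene had more than 3 summits fewer.

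The gene lists are read against the shares of all genes, 21.0% with more and 5.00% with fewer summits, and against genes of like length. Neuronal adhesion and synapse genes, of a median 767 kb, had more summits in 37 of 51 cases and fewer in 1, with 147 summits in wild-type and 263 in ΔWAPL/ΔSCC4 cells, beside 302 for ΔWAPL and 117 for ΔSCC4. The share, 72.5%, was close to the 76.5% of all genes over 500 kb. Classical and type II cadherin genes, which encode calcium-dependent adhesion proteins, had more in 9 of 23 (39.1%) and fewer in 1, beside 42.6% of all genes in the length class just above 100 kb, that of their median length. CDH13 and CDH12 had 2 and 1 summits in wild-type and 5 and 4 in ΔWAPL/ΔSCC4 cells, and CDH23 had 6 and 9. Potassium and calcium channel genes had more in 34 of 112 (30.4%) and fewer in 7, beside 23.3% of all genes of 30 to 100 kb, their class, and KCNMA1 went from 2 to 7. Their summed counts were 130 and 175, a ratio of 1.35 beside 1.404 for all genes. Genes of the actin cytoskeleton and extracellular matrix had more in 30 of 79 (37.97%) and fewer in 3, with COL23A1 at 4 and 6, beside 42.6% of genes of like length. The cadherin and matrix lists thus had shares above that of all genes and below that of their length class.

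Clustered protocadherin genes, which encode cell-surface identity proteins of neurons, had more summits in 38 of 53 cases and fewer in 0. This was 71.7%, beside 42.6% for all genes in the length class just above 100 kb. Their transcripts overlap and share 3′ exons, so that these counts hold the same sites many times. PCDHA1, PCDHA2 and PCDHA3 each had 2 summits in wild-type and 5 in ΔWAPL/ΔSCC4 cells, with 6 in ΔWAPL and 3 in ΔSCC4 cells. The HOX genes, which set position along the body axis, had 20 summits in both genotypes, with more in 2 of 39 and fewer in 2. Each share was 5.13%, beside 6.46% with more and 2.79% with fewer among all genes up to 10 kb, their length class. HOXA3 went from 1 to 2 and HOXD10 from 2 to 1.

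Among other regulators, homeobox and other developmental transcription factor genes had more summits in 23 of 124 and fewer in 6, with SOX6 at 2 and 5. The share with more, 18.5%, was near the 21.0% of all genes and above the 6.46% of genes up to 10 kb, its length class. WNT, FGF and BMP ligand genes had more in 10 of 52 (19.2%) and fewer in 0, also near the share of all genes, with FGF13 at 4 and 7. Haematopoietic transcription factor genes had more in 8 of 19 (42.1%) and fewer in 0, and RUNX1 went from 3 to 4. All genes of 10 to 30 kb, the class of the median lengths of the ligand and haematopoietic lists, had more in 13.9%. Chromosome 19 zinc-finger genes had more in 17 of 246 and fewer in 7, with ZNF536 at 3 and 7. The share of the last list, 6.91%, was below the 21.0% of all genes and the 13.9% of its length class, also 10 to 30 kb. Its summed counts were 24 in wild-type and 37 in ΔWAPL/ΔSCC4 cells, a ratio of 1.54 beside 1.404 for all genes. ZNF536, a gene of 489 kb in a list of median length 25.8 kb, had the largest rise, so that this ratio rests in part on a single long gene.

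In lists of housekeeping genes, which are mostly short, the shares with more summits were near or below that of all genes. Cytosolic ribosomal protein genes had more summits in 12 of 81 and fewer in 4, mitochondrial ones more in 16 of 78 and fewer in 6, and proteasome subunit genes more in 5 of 39 and fewer in 2. The cytosolic share with more, 14.8%, lay above the 6.46% of all genes up to 10 kb, its length class. All genes of 10 to 30 kb had more in 13.9%, beside 20.5% for mitochondrial ribosomal protein genes and 12.8% for proteasome subunit genes. The share with fewer was 7.69% for the mitochondrial ribosomal protein genes and 9.38% for the histone genes, above the 5.00% of all genes. Replication-dependent histone genes had more in 0 of 64 and fewer in 6, with 11 summits in wild-type and 5 in ΔWAPL/ΔSCC4 cells, beside 25 for ΔWAPL and 7 for ΔSCC4. Neighbouring histone genes share summits, as H1-4 and H2BC5 do, whose wild-type site had a fold enrichment of 3.31. Histone genes were the list with the lowest ratio of summed counts, 0.455. Gene families that are silent in most tissues held few sites in either genotype, with 9 and 12 summits in 399 olfactory receptor genes, 5 and 9 in 149 keratin and keratin-associated protein genes, and 1 and 1 in 59 defensin and interferon alpha genes.

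The genes of cohesin and its regulators had more summits in 6 of 20 cases and fewer in 1, with 16 summits in wild-type and 26 in ΔWAPL/ΔSCC4 cells, beside 28 for ΔWAPL and 11 for ΔSCC4. Of all genes of 30 to 100 kb, the class of this list's median length, 23.3% had more and 6.31% fewer, so that the counts of this small list were near the background. STAG2, a core subunit gene, went from 2 to 5, PDS5B, which encodes a cohesin-associated regulator, from 3 to 5, and HDAC8, which encodes the SMC3 deacetylase, from 0 to 2. NIPBL, which encodes the loader subunit SCC2, had 0 in wild-type and ΔSCC4 cells and 2 in ΔWAPL and ΔWAPL/ΔSCC4 cells. WAPL had 0 summits in all 4 genotypes. MAU2 had 1 in wild-type and ΔWAPL/ΔSCC4 cells, as did CTCF. A peak list does not show whether a gene was deleted, so the deletions were not checked from these files.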

How the data were processed

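ChIP-seq was done in 4 HAP1 genotypes with antibodies against SMC1, CTCF and IgG, with 1 library per group, and samples were grouped by the genotype and antibody in the labels. The authors aligned reads to hg19 with Bowtie2 and called peaks per library with MACS2 (version 2.1.1 per the labels). The deposited lists hold each interval, its summit, and, at the summit, a fold enrichment (a ratio of pileup to background, 1 read added to both), −log10 p and −log10 q. The deposited score column and the name column were not used. The threshold is not given in the sources used here. The study's methods name IgG as the control, but the backgrounds of all lists were whole numbers of reads in 10 kb of a single library (100% within 0.05 reads).

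From the deposited fold enrichment and −log10 p, whole-number pileups and backgrounds were solved (99.9% of SMC1 peaks). The lowest background divided by the fragment length, taken as the shortest interval, gave the depth, and pileup divided by the lowest background gave the scaled pileup. Gene parts came from GENCODE version 44 on GRCh37. Intervals are 95% Wilson intervals, those of medians are from order statistics, that of a ratio of medians combines the outer bounds of both, and all cover counting error only. The functions were tested on simulated data. Python 3.11.15, numpy 2.4.6, pandas 2.3.3, scipy 1.17.1 and pysam 0.24.0 were used.

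The motif was learned from the 1000 strongest wild-type CTCF peaks of odd-numbered chromosomes, and the score that 5% of windows 1 kb downstream of wild-type SMC1 summits passed was the threshold.

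Peaks and lists were chosen with earlier results of these data known. Named peaks were the 2 of highest −log10 q in each of 6 classes (chromosomes 1 to 22 and X without 8, none at an IgG peak). Named genes were those with the 10 largest rises, the 5 largest falls, the 5 with most ΔWAPL/ΔSCC4 summits and 0 in wild-type, up to 3 per list, and WAPL, MAU2, NIPBL and CTCF. Some items that these rules name are not reported here. The 18 gene lists are all reported. Alternatives were stricter lists (−log10 q from 10 up, or fold enrichment from 5 up), no peaks at IgG peaks, merging within 500 bp, equal numbers, scaling to the shallower depth (the Poisson p recomputed at each summit, −log10 p from 8 up kept in both lists), 2 stricter overlaps, protein-coding starts only, and no chromosome 15.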

Additional observations from a re-analysis of the deposited data

How the results depend on the processing

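Of 86 alternative values for 11 results, 45 stayed within the 95% interval of the value reported (for the count of genes, within 1.5 times), 38 moved and 3 reversed; the 3 results on gene-poor windows, gene-rich windows and start sites without CTCF were given alternatives after the data were seen.

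Equal numbers of peaks gave the reversals by leaving out the 8016 weakest ΔWAPL/ΔSCC4 peaks: the ratio of median distances was 1.08, the ratio of peak numbers 0.848 in gene-rich windows and 0.284 at start sites without CTCF. The wild-type list kept its weak peaks, so that these reversals do not compare like with like. Equal numbers also gave 1.19 in gene-poor windows, overlapped shares of 77.4% of wild-type and 77.1% of ΔWAPL/ΔSCC4 peaks, 19.04% of ΔWAPL/ΔSCC4-only peaks at start sites and 97.2% at CTCF, 1592 genes with more summits, and a pileup ratio of 1.34.

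At −log10 q from 10 up, the ratio of peak numbers was 1.59 (1.959 in gene-poor and 1.29 in gene-rich windows, 1.74 at start sites without CTCF), the overlapped shares 87.4% and 54.7%, the start-site share 20.1%, the CTCF share 98.1%, the genes with more summits 2609 and the pileup ratio 1.24. Fold enrichment from 5 up gave 1.398, 88.3%, 63.1%, 20.6% and 95.1% for the number ratio, both overlapped shares, the start-site share and the CTCF share. Scaling pileup and background to 6.79 reads per kb and keeping recomputed −log10 p from 8 up, with no new peak calling and fragment lengths unmatched, gave 1.69 (2.15 and 1.37 in gene-poor and gene-rich windows, 3.46 at start sites without CTCF, from 143 and 495 peaks), 92.9%, 54.7%, 21.98%, 94.8%, a distance ratio of 0.652 and a pileup ratio of 1.24. Without IgG peaks, the pileup ratio was 1.285 and the gene-poor ratio 1.97. Wild-type peaks were overlapped in 89.2% under the 50% overlap and 89.1% under summits within 250 bp, 19.9% of ΔWAPL/ΔSCC4-only peaks lay at protein-coding starts, and merging gave a CTCF share of 86.8%. Apart from the equal-number reversals, all ratios kept their side of 1; other causes were not tested.

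No paired analysis was possible because each group held 1 library. A list holds no value under its threshold. The ΔWAPL/ΔSCC4-only peaks at start sites without CTCF had a median of 9.31 on the percentile scale of their list, where 100 is the strongest, so their absence from the wild-type list, the deeper library of both (8.13 against 6.79 reads per kb), was not shown to be absence of SMC1.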
